A study of Mus musculus with 6 samples.

Results

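The genes described here are 40 mouse genes of the endoplasmic reticulum (ER) that fold newly made secretory proteins or respond when folding fails. They were taken as a named list and matched by gene symbol to the authors' comparison tables, and 39 of the 40 were found among 27179 genes counted. The 40th, Ssr4, was not analysed here. All 39 passed the filter on low counts, which 16306 genes passed. RNA was sequenced from 3 groups of 2 libraries each. H7 tumours grew from PANC02-H7 cells and UNKC tumours from UN-KC-6141 cells, both mouse pancreatic carcinoma lines, each placed by surgery in the pancreas of C57BL/6 mice and removed after 20 days. The third group was whole pancreas of C57BL/6 mice without tumour. The mice received no treatment. The labels give no sex or age and do not say whether replicates came from separate animals, so the p-values measure only the spread between these libraries.

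Proteins bound for secretion enter the ER through the Sec61 channel, lose their signal peptide to the signal peptidase complex, and are folded by chaperones, by the sugar-binding chaperones calnexin and calreticulin and by protein disulfide isomerases. Chains that fail to fold are drawn back into the cytosol and destroyed, a route called ER-associated degradation. When unfolded chains accumulate, the sensors IRE1 (gene Ern1), PERK (Eif2ak3) and ATF6 start the unfolded protein response, through spliced XBP1, through ATF4 and CHOP (Ddit3), and through cleaved ATF6. Acinar cells, which make up most of the pancreas, secrete digestive enzymes in bulk and are known for an extensive ER. Gene counts do not measure Xbp1 splicing, cleavage of ATF6, phosphorylation or protein.

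Many ER genes carry in their promoter the ER stress response element, the sequence through which ATF6 and XBP1 are known to act. It was searched as the letters CCAAT and CCACG with 9 bases of any kind between them, on both strands, in the 250 bases before each RefSeq gene start (GRCm38.p6). It was present for 9 of the 31 genes with a promoter window (29.0%) and for 35 of 27025 genes of the genome with one (0.130%). A related element, ATTGG and CCACG with 1 base between them, was present for 10 genes of the genome (0.0370%) and for Herpud1 alone among the 31. The stretches below are shown because these genes lie on both sides of the comparison that follows: the first 4 belong to genes with more RNA in both tumours than in normal pancreas, and the last 4 to genes with less RNA in at least 1 of them. Hsp90b1 and Dnajc3, called higher in H7 tumours only, also had the first element and are not shown. Capitals mark the element, read 5′ to 3′ on the strand of the gene. Where it lies on the other strand it reads CGTGG and then ATTGG.
Hspa5, chr2:34772010-34772058, plus strand: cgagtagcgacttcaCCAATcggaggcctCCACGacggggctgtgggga
Calr, chr8:84847060-84847108, minus strand: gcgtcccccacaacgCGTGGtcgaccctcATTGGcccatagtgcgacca
Canx, chr11:50325785-50325833, minus strand: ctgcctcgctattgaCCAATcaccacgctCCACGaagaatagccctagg
Pdia6, chr12:17266476-17266524, plus strand: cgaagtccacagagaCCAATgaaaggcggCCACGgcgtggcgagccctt
Creld2, chr15:88819505-88819553, plus strand: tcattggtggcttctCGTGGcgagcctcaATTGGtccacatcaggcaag
Syvn1, chr19:6046517-6046565, plus strand: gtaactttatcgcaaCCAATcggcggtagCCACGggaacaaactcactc
Derl3, chr10:75893227-75893275, plus strand: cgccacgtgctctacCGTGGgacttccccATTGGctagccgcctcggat
Herpud1, chr8:94386362-94386402, plus strand: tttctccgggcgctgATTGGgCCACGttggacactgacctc
The core of the XBP1 element, TGACGTGG, was in 0.603% of genes of the genome and in none of the 31. The ATF4 core TGATGNAA was in 3.91% of genes and, among the 31, in Herpud1. A match of letters is a description and not a site of binding.

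The libraries differed in depth. Reads counted in genes came to 33332516 and 36307030 in H7 tumours, 40507546 and 38728423 in UNKC tumours, and 12077320 and 8204225 in normal pancreas. Ribosomal RNA, Lars2 and 1 unnamed gene took 20.3% to 28.4% of the tumour reads and 93.5% and 91.5% of the normal reads, which left a median of 460 to 625.5 reads per tested gene in tumours and of 11 and 12 in normal pancreas. Levels are therefore given as CPM, the counts scaled to an effective library size with TMM factors. Acinar marker genes summed to 46.7 and 58.3 CPM in H7 tumours and 22.3 and 10.7 CPM in UNKC tumours, against 18740 and 18376 CPM in normal pancreas, and all 20 of them were lower in both tumours. Skeletal muscle genes summed to 598 CPM in H7 replicate 2 and 2130 CPM in UNKC replicate 2, but 10.4 and 1.55 CPM in the other tumour libraries, against 7.87 and 2.86 CPM in normal pancreas. The part of cell make-up, ribosomal RNA or muscle in the results was not tested. In whole tissue, fewer cells of a type and less RNA per cell cannot be told apart.

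The tumours and normal pancreas differed in which ER genes made up their ER reads. The 39 genes together took a similar share of the counts left after ribosomal RNA, Lars2 and the unnamed gene, with 1.20% and 1.31% in H7 tumours and 1.05% and 0.980% in UNKC tumours, against 1.06% and 1.24% in normal pancreas. Within that share, the 6 degradation genes took 5.59% and 5.24% in H7 tumours and 4.59% and 5.31% in UNKC tumours, against 42.7% and 37.4% in normal pancreas. Most of their reads in normal pancreas came from Sel1l and Herpud1. The 4 disulfide isomerases took 22% and 21.7% in H7 tumours and 21.6% and 21.0% in UNKC tumours, against 7.71% and 8.67%. The sensors and factors took 4.64% and 4.28% in H7 tumours and 6.31% and 6.35% in UNKC tumours, against 14% and 13.5%. These are shares of reads, in which long genes weigh more. No library of either tumour overlapped the normal libraries in any of the 7 role groups. The shares make up a fixed whole, so a lower share of the degradation genes by itself raises the shares of the other groups.

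**Figure D1:**
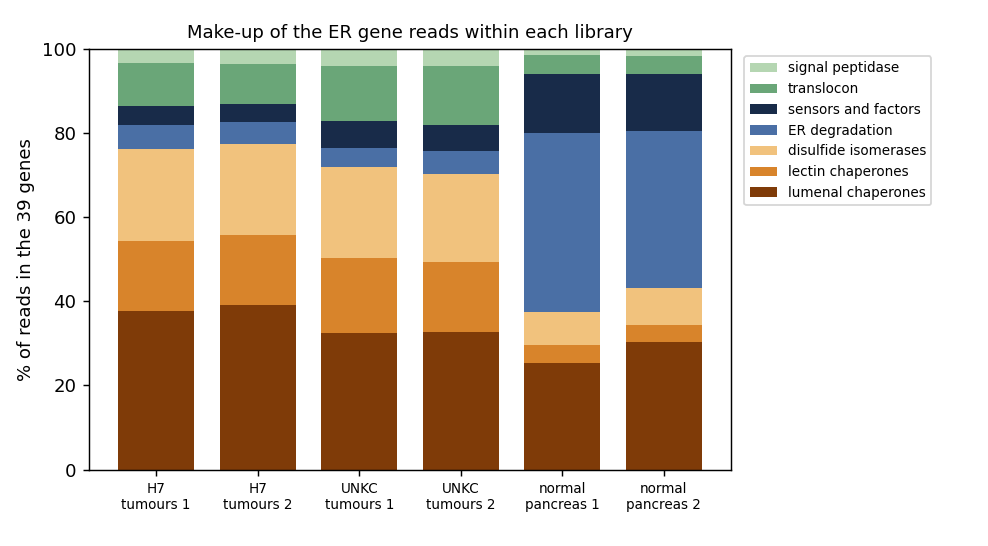
Share of the reads of the 39 ER genes (vertical axis, %) taken by each role group in each library, with H7 tumours at the left, UNKC tumours in the middle and normal pancreas at the right. The degradation genes take 4.59% to 5.59% in the tumours, against 37.4% and 42.7% in normal pancreas.

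Against normal pancreas, the H7 tumours had more RNA of 18 of the 39 genes and less of 12 (edgeR quasi-likelihood test, Benjamini-Hochberg adjusted p under 0.05), where 29.6% of all tested genes were higher and 21.9% lower. In UNKC tumours 15 were higher and 12 lower, where 29.1% of all tested genes were higher and 19.3% lower. The median log2 fold change of the 39 genes was 0.38 in H7 and 0.41 in UNKC tumours, beside 0.34 and 0.42 over all tested genes, with members on both sides. Both comparisons use the same 2 normal libraries. In both, 14 genes were higher and 11 lower, and the share of all tested genes called in both is not given here. The split between higher and lower depended on scaling: it was 14 and 14 (H7) and 12 and 12 (UNKC) with upper-quartile factors, 14 and 13 and 12 and 15 with the tumour reads thinned to the depth of normal pancreas, and 13 and 15 and 11 and 14 with the trend on gene length removed.

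**Figure D2:**
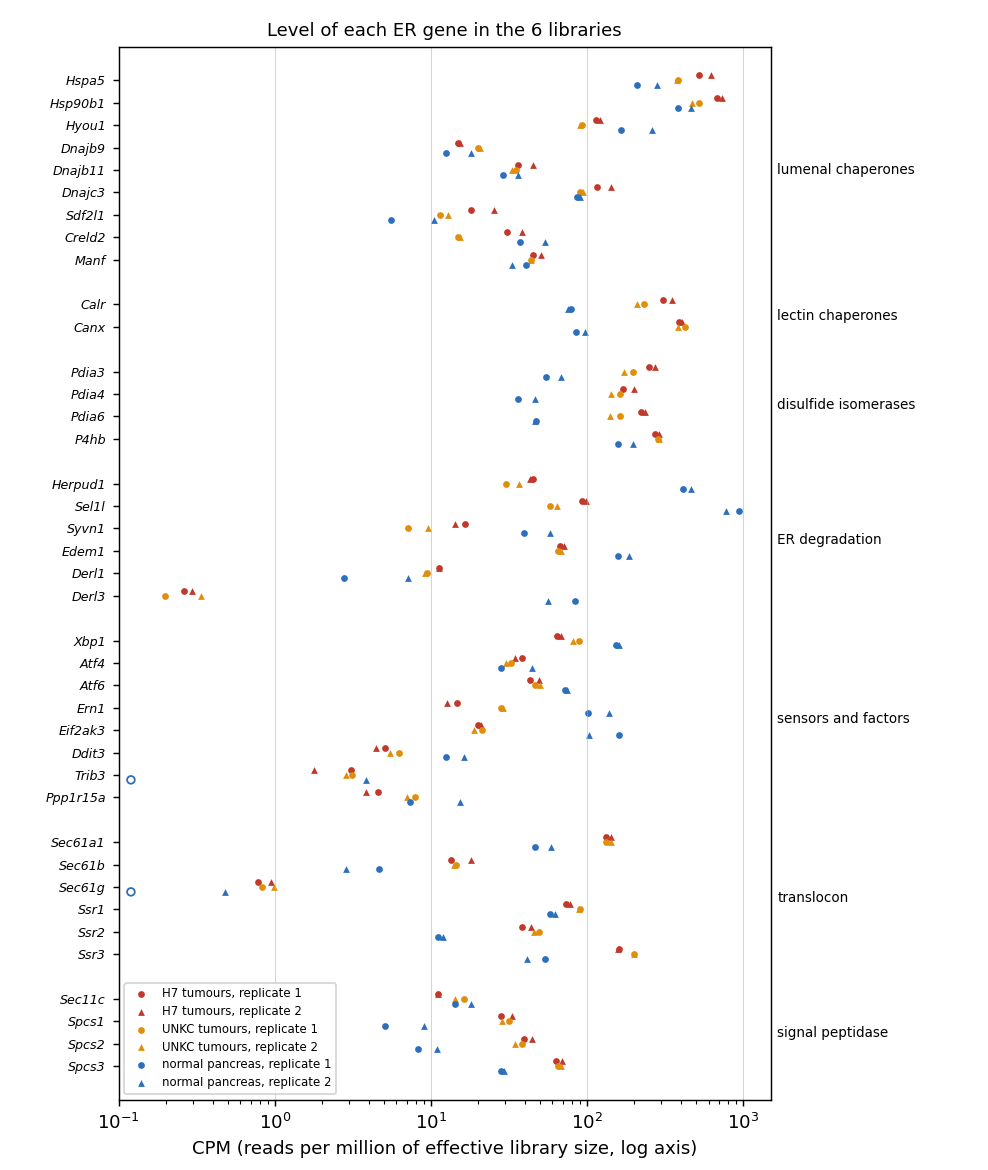
Level of each ER gene in CPM (horizontal log axis) in every library, by role group; circles are replicate 1 and triangles replicate 2, and open circles at the left edge mark genes with 0 reads in normal replicate 1. Derl3 lies between 0.199 and 0.340 CPM in the tumours, against 56.3 and 83.3 CPM in normal pancreas.

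The folding machinery split by class. Both lectin chaperones and all 4 disulfide isomerases were higher in both tumours, while of the 9 lumenal chaperones and co-chaperones H7 tumours had 4 higher and 1 lower, and UNKC tumours 1 higher and 2 lower. Hspa5 encodes BiP, the main ER chaperone, which also holds the sensors inactive. It had 522 and 626 CPM in H7 tumours and 383 and 378 CPM in UNKC tumours, against 209 and 279 CPM in normal pancreas. All 4 tumour libraries lay above both normal libraries, H7 highest. The log2 fold change was 1.23 ± 0.19 in H7 (SE, n = 2 each, adjusted p = 0.00261) and 0.64 ± 0.18 in UNKC tumours (adjusted p = 0.0303). The H7 call held under all 16 alternatives, whereas the UNKC call held in 6 of 16, with values from 0.08 to 0.89, and was lost without either UNKC library and without normal replicate 1.

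Among the other lumenal chaperones, Hyou1 and Creld2 were lower in at least 1 tumour. Hyou1, a large chaperone that exchanges nucleotide on BiP, had 114 and 122 CPM in H7 tumours and 92.8 and 89.7 CPM in UNKC tumours, against 166 and 260 CPM in normal pancreas. Its log2 fold change was -0.85 ± 0.22 in H7 (adjusted p = 0.0186; -0.46 to -1.35 over the alternatives, lost without either H7 library) and -1.22 ± 0.22 in UNKC tumours (adjusted p = 0.00521). All tumour libraries were below both normal ones. Creld2, a secreted ER stress-induced disulfide isomerase-like protein, had 30.7 and 38.2 CPM in H7 tumours and 15 and 15.3 CPM in UNKC tumours, against 37.0 and 53.9 CPM in normal pancreas. H7 tumours overlapped normal pancreas (log2 fold change -0.40 ± 0.22, adjusted p = 0.174), while UNKC tumours lay below it (-1.58 ± 0.22, adjusted p = 0.00214). In H7 it was called lower in 5 of 16 alternatives, without normal replicate 1 among them, with values down to -1.42.

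Sdf2l1, a partner of the BiP cochaperones, had 18.1 and 25.4 CPM in H7 tumours and 11.4 and 12.8 CPM in UNKC tumours, against 5.55 and 10.5 CPM in normal pancreas, which rests on 12 and 22 reads there. Its log2 fold change was 1.44 ± 0.33 in H7 (adjusted p = 0.0129) and 0.60 ± 0.33 in UNKC tumours (adjusted p = 0.19, called without normal replicate 2), and the H7 value was 0.18 with the length trend removed. The call was also lost without H7 replicate 2. Hsp90b1, the ER member of the HSP90 family, had a log2 fold change of 0.73 in H7 and 0.22 in UNKC tumours, and Dnajc3, a BiP cochaperone that also inhibits PERK, 0.55 and 0.06. The H7 calls of these 2 genes were lost under 5 and 6 of the 16 alternatives, without H7 replicate 2 among them, and Dnajc3 was at -0.05 in the thinned libraries. Dnajb9, Dnajb11 and Manf passed the test against normal pancreas in neither tumour, with log2 fold changes from -0.01 to 0.41. Without normal replicate 1 Manf was called higher in both, and without normal replicate 2 Dnajb9 was called higher in UNKC tumours. With the length trend removed Dnajb9 was at -0.72 in H7 tumours and called lower.

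The lectin chaperones hold glycoproteins while they fold. Calr, calreticulin, had 307 and 351 CPM in H7 tumours and 233 and 208 CPM in UNKC tumours, against 79.2 and 75.9 CPM in normal pancreas. The log2 fold change of Calr was 2.08 ± 0.14 in H7 (adjusted p = 0.000198) and 1.51 ± 0.14 in UNKC tumours (adjusted p = 0.000482). Canx, calnexin, the membrane-bound partner of calreticulin, had 387 and 403 CPM in H7 tumours and 426 and 382 CPM in UNKC tumours, against 85.2 and 97.3 CPM in normal pancreas. It rose in both tumours, by 2.11 ± 0.14 in H7 and 2.15 ± 0.14 in UNKC on the log2 scale (adjusted p = 0.000195 in each). In both genes no tumour library overlapped a normal one.

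The disulfide isomerases make and rearrange the cysteine bridges of secretory proteins. Pdia6 had 222 and 234 CPM in H7 tumours and 162 and 139 CPM in UNKC tumours, against 47.2 and 46.8 CPM in normal pancreas, with log2 fold changes of 2.28 ± 0.14 (adjusted p = 0.000161) and 1.68 ± 0.13 (adjusted p = 0.000322). Pdia4 had 170 and 199 CPM in H7 tumours and 162 and 143 CPM in UNKC tumours, against 36.1 and 46.3 CPM, and rose by 2.16 ± 0.18 in H7 and 1.89 ± 0.18 in UNKC tumours. Pdia3, which works with calnexin and calreticulin on glycoproteins, had 248 and 271 CPM in H7 tumours and 196 and 174 CPM in UNKC tumours, against 54.6 and 68.2 CPM, with log2 fold changes of 2.08 ± 0.16 and 1.59 ± 0.16. These 3 genes were called in both tumours under every alternative. P4hb, the founding isomerase and a subunit of prolyl 4-hydroxylase, rose less, by 0.68 in H7 and 0.70 in UNKC tumours, and its calls were lost with upper-quartile factors, in the thinned libraries and with the length trend removed. The H7 call was also lost without H7 replicate 2.

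The degradation genes moved the other way. Of the 6, 5 were lower in both tumours, and this count of 5 was the same under every alternative. Sel1l, the scaffold of the Hrd1 ubiquitin ligase complex (chr12:91806043-91849157), had 93.2 and 99.0 CPM in H7 tumours and 57.8 and 64.0 CPM in UNKC tumours, against 935 and 772 CPM in normal pancreas. Its log2 fold change was -3.15 ± 0.16 in H7 (adjusted p = 0.000133) and -3.81 ± 0.16 in UNKC tumours (adjusted p = 0.000136). Levels per kilobase of gene length put Hsp90b1, Hspa5 and Calr highest of the 39 genes in both tumours, whereas in normal pancreas Herpud1 (234.5 CPM per kilobase), Hsp90b1 (154) and Sel1l (135) were highest.

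Herpud1, a membrane protein that recruits the same ligase complex and a known target of the unfolded protein response, had 45.0 and 43.3 CPM in H7 tumours and 30.5 and 36.5 CPM in UNKC tumours, against 414 and 464 CPM in normal pancreas. Its log2 fold change was -3.31 ± 0.15 in H7 (adjusted p = 0.000132) and -3.71 ± 0.16 in UNKC tumours (adjusted p = 0.000136). Derl3, a derlin of the retrotranslocation channel known for high levels in secretory tissues, had 0.261 and 0.295 CPM in H7 tumours and 0.199 and 0.340 CPM in UNKC tumours, against 83.3 and 56.3 CPM in normal pancreas. The tumour values rest on 18 and 23 reads in H7 and 18 and 29 in UNKC tumours, and the log2 fold changes were -7.96 ± 0.38 (adjusted p = 0.000133) and -8.01 ± 0.38 (adjusted p = 0.000141). No other of the 39 genes fell as far. The acinar markers beside it had median log2 fold changes of -9.04 in H7 and -10.4 in UNKC tumours.

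Syvn1, which encodes the Hrd1 ligase itself, had log2 fold changes of -1.66 in H7 and -2.55 in UNKC tumours, and Edem1, which marks misfolded glycoproteins for disposal, of -1.31 and -1.36. Derl1, the widely expressed derlin, was the exception, with 11.2 and 11.3 CPM in H7 tumours and 9.48 and 9.18 CPM in UNKC tumours, against 2.78 and 7.16 CPM in normal pancreas. These normal values rest on 6 and 15 reads. Its log2 fold change was 1.18 ± 0.37 in H7 (adjusted p = 0.0393, lost in 9 of 16 alternatives, each tumour library left out among them) and 0.92 ± 0.37 in UNKC tumours (adjusted p = 0.0912, called without normal replicate 2).

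Ratios of 2 genes within a single library do not depend on scaling between libraries. They still carry any trend on gene length that differs between libraries. The lengths were 2616 bases for Hspa5, 6300 for Sel1l and 3976 for Ern1. Hspa5 had 5.60 and 6.32 reads for every Sel1l read in H7 tumours and 6.63 and 5.90 in UNKC tumours, against 0.224 and 0.362 in normal pancreas. Against Ern1, Hspa5 had 35.6 and 49 reads per read in H7 tumours and 13.7 and 13.1 in UNKC tumours, against 2.07 and 2.02 in normal pancreas. These pairs were chosen after their values were seen, and they show unequal change, not which gene moved or in which direction.

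**Figure D3:**
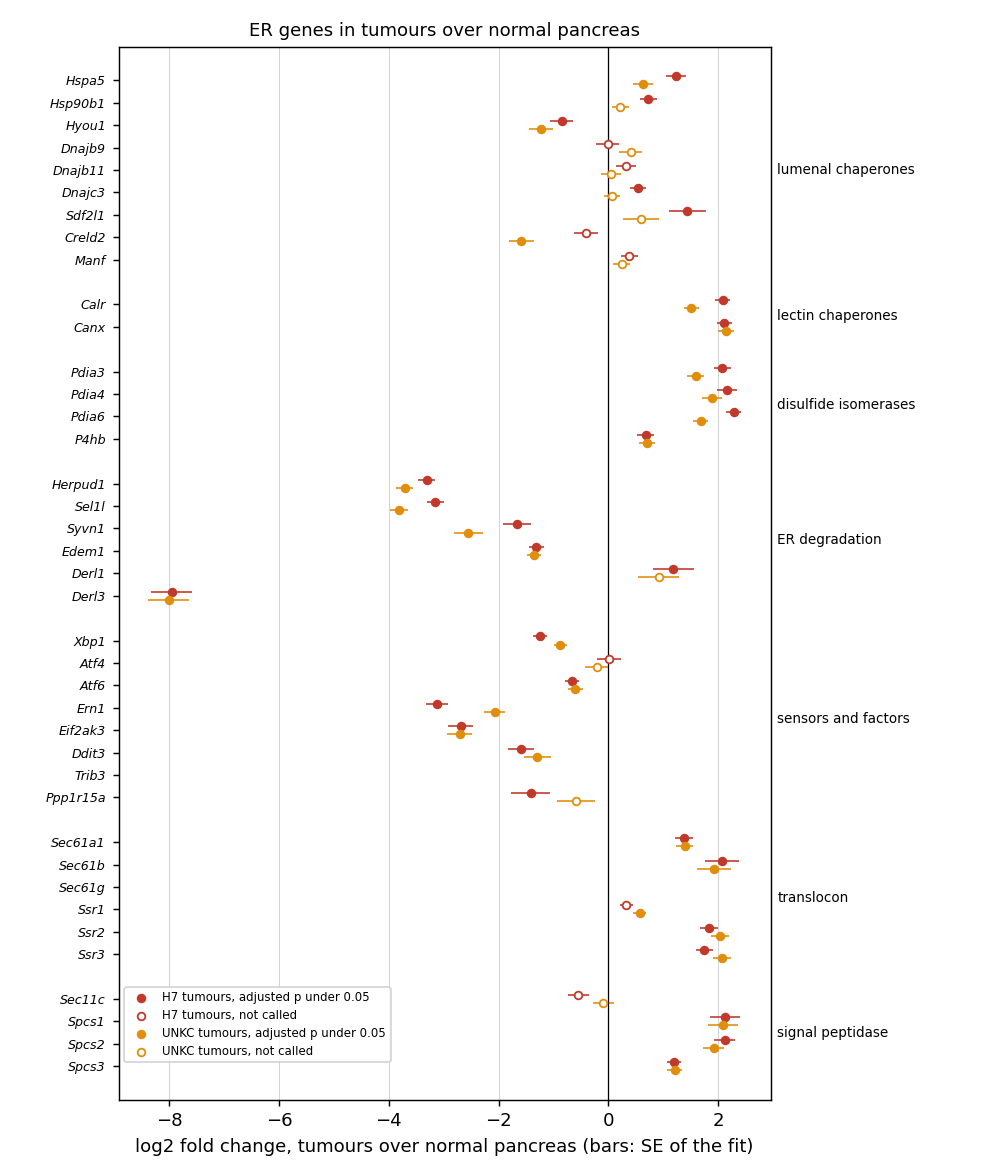
Log2 fold change of each ER gene in H7 tumours and UNKC tumours over normal pancreas (horizontal axis, bars are the SE of the fit), by role group; filled points passed adjusted p 0.05. Lectin chaperones and disulfide isomerases lie right of 0 and 5 of the 6 degradation genes left of it in both tumours; Trib3 and Sec61g, with 0 reads in normal replicate 1, are not drawn.

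All 3 stress sensors had less RNA in both tumours, and none of the 8 sensors and factors was called higher in either, although without normal replicate 2 Atf4 and Trib3 were called higher in H7 and Trib3 in UNKC tumours. Of the 8, 6 were lower in H7 and 5 in UNKC tumours. Ern1, the IRE1 kinase and nuclease that splices Xbp1, had 14.7 and 12.8 CPM in H7 tumours and 28.0 and 28.8 CPM in UNKC tumours, against 101 and 138 CPM in normal pancreas. On the log2 scale Ern1 changed by -3.12 ± 0.20 in H7 (adjusted p = 0.000177) and -2.07 ± 0.19 in UNKC tumours (adjusted p = 0.000479). Eif2ak3, the PERK kinase, had 20.0 and 20.8 CPM in H7 tumours and 21.3 and 19.0 CPM in UNKC tumours, against 160 and 104 CPM, with log2 fold changes of -2.69 ± 0.23 and -2.71 ± 0.23 (adjusted p = 0.000374 and 0.000388). Atf6 had smaller log2 fold changes of -0.66 and -0.60, and its calls were lost with the length trend removed, without H7 replicate 1 and without either UNKC library.

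Among the factors downstream, Xbp1 had 64.1 and 68.2 CPM in H7 tumours and 89.2 and 81.5 CPM in UNKC tumours, against 153 and 161 CPM in normal pancreas. The log2 fold changes were -1.24 ± 0.12 in H7 (adjusted p = 0.000574) and -0.88 ± 0.12 in UNKC tumours (adjusted p = 0.00203). Ddit3, which encodes CHOP, the factor of the PERK branch linked to cell death, had 5.05 and 4.47 CPM in H7 tumours and 6.27 and 5.45 CPM in UNKC tumours, against 12.5 and 16.2 CPM. The normal values rest on 27 and 34 reads, and the log2 fold changes were -1.59 ± 0.24 (adjusted p = 0.00274) and -1.29 ± 0.24 (adjusted p = 0.00615).

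Atf4, the factor that PERK raises mainly through translation, had 38.3 and 34.8 CPM in H7 tumours and 32.6 and 30.4 CPM in UNKC tumours, against 28.2 and 44.4 CPM in normal pancreas. The groups overlapped, and the log2 fold changes were 0.01 ± 0.22 (adjusted p = 0.972) and -0.20 ± 0.22 (adjusted p = 0.484). These values turn on single choices. With the length trend removed they were -0.77 and -1.05, both called lower. Without normal replicate 2 the H7 value was 0.41 and called higher, and without normal replicate 1 the UNKC value was -0.47 and called lower, as it also was in the thinned libraries. Ppp1r15a, the GADD34 phosphatase subunit that ends the PERK signal, had a log2 fold change of -1.42 in H7 and -0.59 in UNKC tumours. Its H7 call was lost without either H7 library and without normal replicate 2. In UNKC tumours Ppp1r15a was called lower in 4 of 16 alternatives. These were the thinned libraries, the length trend removed, normal replicate 1 left out and DESeq2. Without normal replicate 2 the UNKC value of Ppp1r15a was 0.05. Trib3, a CHOP target, had 214 and 140 reads in H7 tumours and 282 and 245 in UNKC tumours, against 0 and 8 in normal pancreas, too few for a fold.

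Most genes of the entry machinery were called higher. The Sec61 channel and its associated TRAP complex, of which Ssr1, Ssr2 and Ssr3 are subunits, had 4 of 6 genes higher in H7 and 5 of 6 in UNKC tumours, and the signal peptidase complex 3 of 4 in each. None of these 10 genes was called lower, but Sec11c was under 5 alternatives in H7 and 1 in UNKC tumours. Ssr3 had 160 and 158 CPM in H7 tumours and 200 and 199 CPM in UNKC tumours, against 53.7 and 41.0 CPM in normal pancreas, and rose by 1.75 ± 0.16 and 2.07 ± 0.16 (adjusted p = 0.000445 and 0.000298). Ssr2 had 38.2 and 43.9 CPM in H7 tumours and 49.1 and 45.5 CPM in UNKC tumours, against 11.1 and 11.9 CPM, with log2 fold changes of 1.83 ± 0.16 and 2.04 ± 0.16, or 0.65 and 0.81, still called, with the length trend removed. All 4 tumour libraries stood above both normal libraries for both subunits. Sec61a1, the pore of the channel, had log2 fold changes of 1.38 and 1.39. Ssr1 had 0.33 in H7 (adjusted p = 0.0602) and 0.58 in UNKC tumours (adjusted p = 0.00913). In H7 tumours Ssr1 was called higher in 5 of 16 alternatives. Leaving out either normal library and removing the length trend (0.83) were among them. With upper-quartile factors and in the thinned libraries its H7 value turned negative, down to -0.19. The UNKC call of Ssr1 was lost in 4 alternatives, without either UNKC library among them.

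Sec61b, the beta subunit of the channel, had 13.4 and 18.1 CPM in H7 tumours and 14.4 and 14 CPM in UNKC tumours, against 4.63 and 2.86 CPM in normal pancreas, from 10 and 6 reads there. Its log2 fold changes were 2.07 ± 0.30 (adjusted p = 0.00246) and 1.92 ± 0.31 (adjusted p = 0.00343), and 0.09 and -0.01 with the length trend removed, at a gene length of 552 bases, the shortest of the 39. Sec61g, the gamma subunit, had 54 and 74 reads in H7 tumours and 75 and 84 in UNKC tumours, against 0 and 1 in normal pancreas, and gives no fold.

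Of the signal peptidase subunits, Spcs2 had 39.2 and 44.5 CPM in H7 tumours and 38.4 and 34.8 CPM in UNKC tumours, against 8.33 and 11 CPM, and rose by 2.12 ± 0.19 and 1.93 ± 0.19 (adjusted p = 0.000445 and 0.000659). Spcs3 had 63.1 and 68.9 CPM in H7 tumours and 64.9 and 68.5 CPM in UNKC tumours, against 28.2 and 29.6 CPM, and rose by 1.19 ± 0.13 and 1.21 ± 0.13. Spcs2 and Spcs3 were called in both tumours under every alternative. Spcs1 had 28.2 and 33.2 CPM in H7 tumours and 31.6 and 28.5 CPM in UNKC tumours, against 5.09 and 9.07 CPM. Its log2 fold changes of 2.12 ± 0.27 and 2.09 ± 0.27 became 0.75 and 0.70 with the length trend removed, neither of them called. Sec11c, a catalytic subunit, was at -0.55 and -0.09, neither called, and at -2.22 and -1.75, both called, with that trend removed. In H7 tumours it was also called lower with upper-quartile factors, with RLE factors, with DESeq2 and without normal replicate 1.

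Gene length mattered most for the shortest genes. Fold changes against normal pancreas trended with gene length over all genes, and removing that trend lowered the median of all tested genes by 0.43 in H7 and 0.51 in UNKC tumours. The calls of Calr, Canx, Pdia3, Pdia4, Pdia6, Sec61a1, Ssr2, Ssr3, Spcs2 and Spcs3 and of the 5 lower degradation genes, Ern1, Eif2ak3, Xbp1 and Ddit3 held in both tumours after it. Ddit3, of 871 bases, then had log2 fold changes of -3.12 in H7 and -2.83 in UNKC tumours. Some exons also overlap genes on the opposite strand (Spcs1 by 16.3%, Ssr2 by 12.8% and Hsp90b1 by 10.3% of exon bases), and whether the libraries keep the strand is not given in the sources used here.

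**Figure D4:**
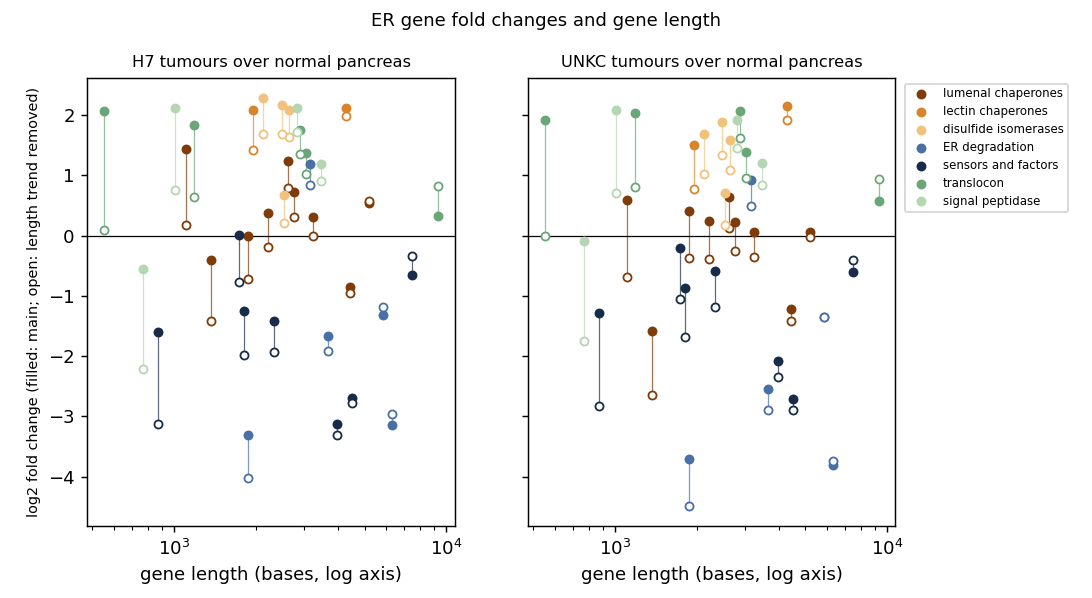
Log2 fold change over normal pancreas against gene length in bases (horizontal log axis), H7 tumours at the left and UNKC tumours at the right; filled points are the values as reported, open points those with the length trend removed, and lines join the same gene. Sec61b at 552 bases moves to 0.09 in H7 and -0.01 in UNKC tumours, while Canx stays close to 2; Derl3, Trib3 and Sec61g are not drawn.

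How far the tumours differed from each other in these genes depended on the fit. Of the 39, 4 were higher and 1 lower in H7 than in UNKC tumours, where 7.06% of all tested genes were higher and 11.1% lower, and the median log2 fold change was 0.05. Ern1 had a log2 difference of -1.05 ± 0.18 (adjusted p = 0.0135), with 14.7 and 12.8 CPM in H7 against 28.0 and 28.8 CPM in UNKC tumours. Creld2 was higher by 1.18 ± 0.21 (adjusted p = 0.0152), Sel1l by 0.66 ± 0.15 (adjusted p = 0.0307), Pdia6 by 0.60 ± 0.13 (adjusted p = 0.0259) and Calr by 0.58 ± 0.13 (adjusted p = 0.034). For these 5 genes the 2 H7 libraries did not overlap the 2 UNKC libraries. The genes were picked by the test between these libraries, so this adds no support. Each of the 5 calls was lost when any 1 of the 4 tumour libraries was left out, which leaves 1 library in a group. DESeq2 called 11 of the 39 higher and 7 lower, where it called 15.1% and 14.9% of all genes. A fit to the 4 tumour libraries alone called 12 higher and 6 lower, where it called 14.4% and 15.5% of all genes. Macrophage markers summed to 646 and 615 CPM in H7 against 362 and 339 CPM in UNKC tumours, with 4 of 10 called higher and 1 lower in H7. Epithelial markers summed to 404.5 and 391.6 CPM in H7 against 1150 and 956 CPM in UNKC tumours, with 4 of 8 called lower in H7, and 8 of 20 acinar markers were higher in H7. The part of these cells in the differences was not tested. For Canx the difference was -0.03 ± 0.13 and for Eif2ak3 0.02 ± 0.21, and neither passed the test.

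**Figure D5:**
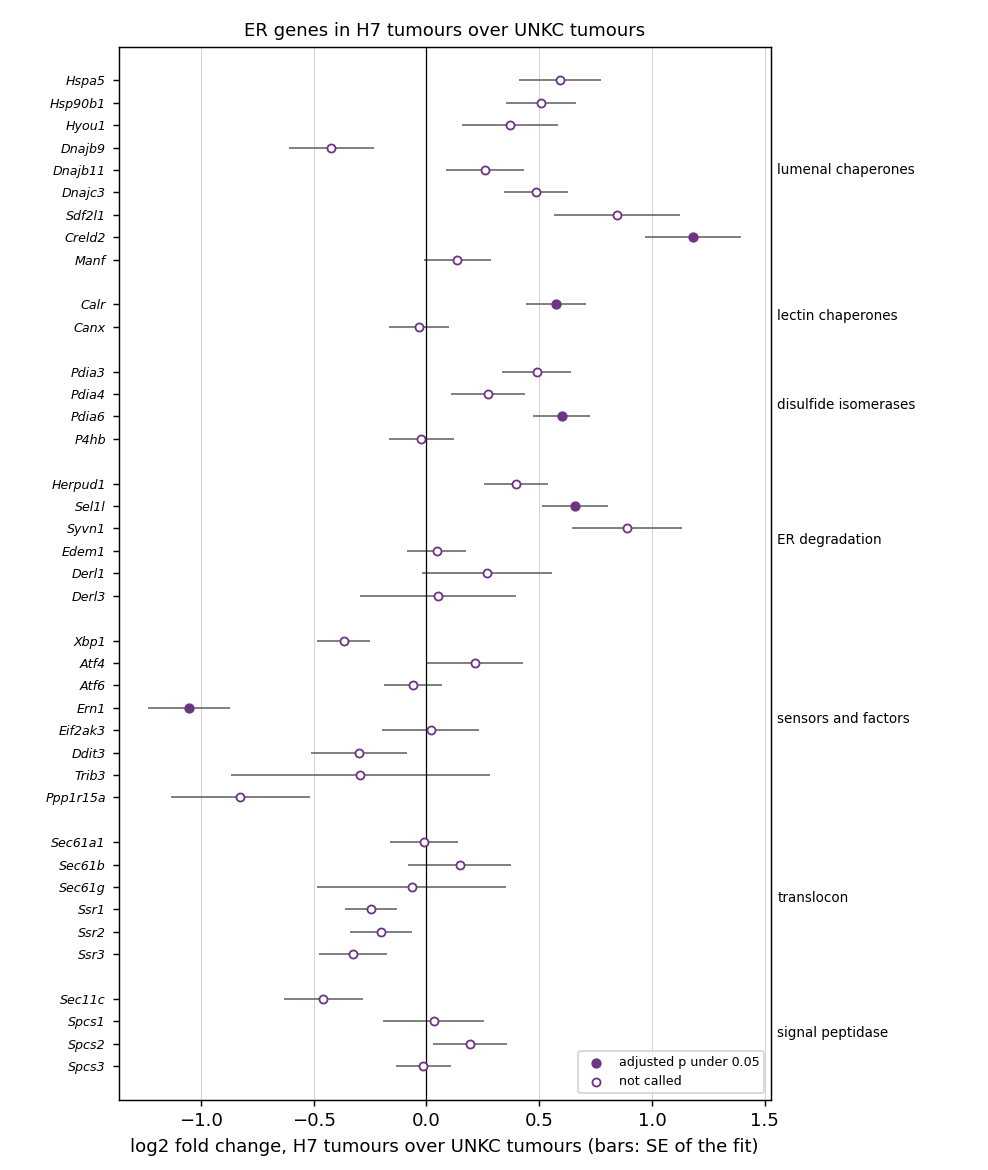
Log2 fold change of each ER gene in H7 tumours over UNKC tumours (horizontal axis, bars are the SE of the fit), by role group; filled points passed adjusted p 0.05. Creld2 at 1.18 lies farthest right and Ern1 at -1.05 farthest left.

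Around these genes, 129 others of the same pathways were grouped in 7 lists, and 128 were tested. Against normal pancreas, 64 (50%) were higher and 29 (22.7%) lower in H7, and 63 (49.2%) and 30 (23.4%) in UNKC tumours, where 29.6% and 21.9% of all tested genes were higher and lower in H7, and 29.1% and 19.3% in UNKC tumours. Each list below is to be read against those shares, and its counts were made with the gene length trend left in. The genes that attach and trim N-linked sugars were higher in 15 of 18 cases in H7 and 14 of 18 in UNKC tumours, and none was called lower. Among them Ostc, a subunit of the oligosaccharyltransferase, had log2 fold changes of 3.02 ± 0.38 and 3.10 ± 0.38, and Tusc3, another subunit, 2.60 ± 0.32 and 3.46 ± 0.32. Their means in normal pancreas were low, at 3.03 CPM for Ostc and 4.49 CPM for Tusc3. Over the alternatives Ostc ranged from 1.71 to 4.13 in H7 and from 1.77 to 4.22 in UNKC tumours. Tusc3 ranged from 1.71 to 3.32 and from 2.53 to 4.18. Both genes were called in both tumours under every alternative. Of 18 genes of ER exit, 10 were higher in each tumour, such as the cargo receptor Surf4 at 2.89 ± 0.19 and 2.98 ± 0.19, and 2 were lower in H7 and 3 in UNKC tumours.

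Of 18 other degradation genes, 8 were higher and 8 lower in H7, and 9 higher and 8 lower in UNKC tumours. Edem2, which trims mannose from misfolded glycoproteins, was at -1.77 ± 0.16 and -2.20 ± 0.16. Among 21 other folding enzymes, 10 were higher and 7 lower in H7, and 12 higher and 5 lower in UNKC tumours. Serpinh1, the collagen chaperone, rose by 2.60 ± 0.30 and 3.50 ± 0.31. Fibroblast markers beside it summed to 976 and 1901 CPM in H7 tumours and 2600 and 4419 CPM in UNKC tumours. In normal pancreas they summed to 384 and 576 CPM. Of these 10 markers, 5 were called higher in H7 and 6 in UNKC tumours, and none lower. Their lowest log2 fold changes were -2.20 in H7 (Fap) and -0.82 in UNKC tumours (Dcn). Pdia2, the pancreatic disulfide isomerase, had 0.290 and 0.205 CPM in H7 tumours and 0.443 and 0.281 CPM in UNKC tumours, against 580 and 716 CPM in normal pancreas.

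Of 18 other regulators, 6 (33.3%) were higher and 4 (22.2%) lower in each tumour, shares near those over all tested genes. Tmbim6, an ER membrane protein that restrains IRE1, rose by 2.62 ± 0.14 and 2.51 ± 0.14, while Bhlha15, the acinar factor MIST1, was at -7.81 ± 0.49 in each. Of 18 targets of ATF4 and CHOP, 7 were higher and 5 lower in H7, and 6 higher and 7 lower in UNKC tumours. Cebpb, a partner of these factors, rose by 3.32 ± 0.23 and 2.46 ± 0.23, and Nupr1, a stress-induced nuclear protein, was at -4.11 ± 0.62 and -5.16 ± 0.65, with normal values of 532 and 144 CPM far apart. Of 18 genes of targeting and membrane insertion, 9 were higher and 3 lower in H7, and 7 higher and 3 lower in UNKC tumours.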

How the data were processed

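Read counts of 27179 genes in 6 mouse libraries were analysed, and the 39 genes and the lists around them were chosen with earlier results of these data known. The authors aligned reads with STAR to mm10 and counted them with featureCounts, per the submitters' processing notes. The deposited per-library files hold raw counts of both mates of a pair, so 2 reads are often 1 fragment and not independent. The authors' comparison tables hold fragment counts, TPM made from those counts and gene length, log2 fold changes and p-values with adjusted p-values from DESeq2 1.18.1. TPM were not used here. By the authors' deposited table, 18 of the 39 genes were higher and 12 lower in H7 tumours (differing here for Dnajc3 and Ssr1), and 16 higher and 12 lower in UNKC tumours (differing for Derl1).

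After filterByExpr, 16306 genes were kept, library sizes took TMM factors, and genes were tested with the quasi-likelihood model of edgeR 4.0.16 in R 4.3.3, fitted to all 6 libraries with group as the only term. Adjusted p-values are Benjamini-Hochberg values over all tested genes, called under 0.05. Log2 fold changes carry the standard error of the fit. Python 3.11.15, pandas 2.3.3 and matplotlib 3.10.9 prepared tables and figures. The 16 alternatives were 10 other settings, DESeq2 1.42.0 among them, and 6 fits that leave out 1 library each. Genes named in full are Hspa5, Xbp1, Atf4 and Ddit3 and up to 3 genes per role with the largest change past the threshold. The other genes named with a fold change were added to account for every gene, and genes of the wider lists are up to 2 per direction. Promoter sequences are from RefSeq (GRCm38.p6).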

Additional observations from a re-analysis of the deposited data

Results flagged for a closer look

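Of the 39 genes, 5 were singled out because the effect of the H7 tumours and of the UNKC tumours against the same normal libraries differed by the test between the tumours. The log2 difference was 1.18 for Creld2, 0.66 for Sel1l, 0.60 for Pdia6, 0.58 for Calr and -1.05 for Ern1, each lost when any 1 tumour library was left out.

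In the wider lists, 9 of 128 tested genes (7.03%) were higher and 6 (4.69%) lower in H7 than in UNKC tumours. Over all tested genes these shares were 7.06% and 11.1%. Of the called genes of the wider lists, 13 are described here. Prdx4, a peroxidase of the ER that helps form disulfide bridges, had a difference of -2.81 ± 0.17. It had 4.29 and 4.54 CPM in H7 tumours and 32.9 and 29.2 CPM in UNKC tumours, against 10.2 and 9.07 CPM in normal pancreas, so it was lower than normal in H7 (-1.12 ± 0.19) and higher in UNKC tumours (1.69 ± 0.18). Qsox1, a sulfhydryl oxidase, had a difference of -1.93 ± 0.19, with -1.33 ± 0.20 in H7 and 0.60 ± 0.19 in UNKC tumours against normal pancreas, of which the UNKC call held in 2 of 16 alternatives and was lost without each library but normal replicate 2. Shmt2, a mitochondrial enzyme of serine metabolism and an ATF4 target, had a difference of 1.24 ± 0.15, with 0.53 ± 0.16 in H7 and -0.71 ± 0.16 in UNKC tumours, and its call was lost without H7 replicate 1. Its call in H7 against normal pancreas held in 4 of 16 alternatives and was lost without each tumour library, and that in UNKC tumours was lost without either UNKC library. The calls of Prdx4 and Qsox1 between the tumours held under all 15 alternatives.

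Creb3l1, a membrane-bound transcription factor, differed by -2.67 (lost without H7 replicate 1), Dnajc10, a disulfide reductase, by -1.53, and Ddit4 by -1.23. Erp27, a pancreatic isomerase-like protein, differed by 1.85, Tram2 by 1.84, Psat1 by 1.25, Cebpb by 0.86, Ero1b by 0.80, Mogs by 0.78 and Tram1 by 0.69. Levels of Erp27 were very low in both tumours. The means were 0.334 CPM in H7 and 0.0899 CPM in UNKC tumours, against 54.4 CPM in normal pancreas. The calls of Tram2, Psat1, Cebpb, Ero1b, Mogs and Tram1 were lost when any 1 tumour library was left out. Those of Tram2, Ero1b and Tram1 were also lost in the thinned libraries. The calls of Dnajc10 and Ddit4 were lost without either H7 library or UNKC replicate 1, and that of Erp27 without either H7 library or UNKC replicate 2. The Erp27 call was also lost in the fit to the 4 tumour libraries alone. The Ddit4 call held in 8 of 15 alternatives. It was also lost with total counts without ribosomal RNA and dominant genes, with no filter on low counts, in the thinned libraries and with the length trend removed.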

How the results depend on the processing

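Of the genes called against normal pancreas, 20 of 30 in H7 and 21 of 27 in UNKC tumours were called the same way under all 16 alternatives, and between the tumours 0 of 5. With 1 library left out, the counts of higher and of lower genes against normal pancreas ranged from 13 to 21 and from 9 to 14 in H7 tumours, and from 13 to 19 and from 11 to 14 in UNKC tumours. Between the tumours they ranged from 0 to 10 higher and from 0 to 6 lower. There the count of higher genes was 11 with DESeq2, 12 in the fit to 4 libraries and 1 in thinned libraries, and that of lower genes 7 with DESeq2 and 6 in the fit to 4 libraries. With the gene length trend removed, Atf4 in H7 tumours was -0.77 and Sec61b in UNKC tumours -0.01, and the cause was not tested. Upper-quartile factors moved the median of all genes by -0.35 in H7 and -0.36 in UNKC tumours, and DESeq2 by -0.22 and -0.23 over the same genes. The labels do not pair replicate numbers. Same-numbered libraries deviated together between H7 and UNKC tumours (r = 0.526) but not with normal pancreas (-0.012 and -0.023). With the replicate as a block 18 genes were higher and 12 lower in H7, 15 and 12 in UNKC tumours, and 5 and 1 between the tumours, where Calr lost its call and Sdf2l1 and Syvn1 gained one. The 11 and 12 reads of a median gene in the normal libraries limit every comparison with them.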
